A study of Mus musculus with 9 samples.

Results

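The genes described here are 10 regulators and structural genes of the skeletal muscle lineage: Pax3, Pax7, Myf5, Myod1, Myog, Myf6, Chrna1, Actc1, Myh3 and Mymk. They were taken by name from a fixed list, with every probe set that the platform annotation gives to them alone. The list was chosen with earlier results of these data known. Shares of all genes set beside its counts therefore describe the list and do not test it. All 10 were measured, among 18193 genes with a probe set of their own. They have 14 probe sets, because Pax3 has 3 and Pax7 and Myod1 have 2 each. A gene with several was represented by its brightest probe set on average.

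Cells were sorted by flow cytometry from back skin at postnatal day 2. There were 3 animals, which the labels number 2, 4 and 5, and all 3 gates were taken from each. R3 held GFP+CD133+ cells, labelled as papillae of guard, awl and auchene hairs, and R2 held GFP-CD133+ cells, labelled as papillae of zigzag hairs. R1 held GFP-CD133- cells, dermal cells labelled as free of papilla. The labels name no strain, genotype or transgene. GFP is known from work on such mice as a reporter of Sox2, and CD133 is the protein of Prom1. A gate is a sort and not a single cell type, so every level is that of a mixture.

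In skeletal muscle development, the paired-box factors Pax3 and Pax7 mark precursors, and the basic helix-loop-helix factors Myf5, Myod1, Myog and Myf6 then commit them and drive differentiation. Mymk, a membrane protein, lets myoblasts fuse. Actc1, Myh3 and Chrna1 belong to the young fibre, as an actin, a myosin heavy chain and an acetylcholine receptor subunit. Back skin carries a thin sheet of striated muscle under the dermis, the panniculus carnosus. Pax3 is also a factor of the neural crest, from which melanocytes and Schwann cells come.

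The deposited values are on a log2 scale with array medians from 6.13 to 6.20, and the number of arrays, 3 per gate, limits the precision. As a guide to background, 43 probe sets of olfactory receptors were used, and their 95th percentile on an array lay between 5.02 and 5.47. Of the gate genes, Sox2 averaged 10.66 in R3, 7.08 in R2 and 4.19 in R1, and Prom1 averaged 10.32 in R3, 11.85 in R2 and 7.43 in R1. Sox2 was thus highest in the GFP+ gate, and Prom1 was higher in both CD133+ gates than in R1. Gates of the same label also differed, without overlap of their arrays. Sox2 was higher in R2 than in R1, both GFP-, and Prom1 was lower in R3 than in R2, both CD133+. Arrays of a gate correlated at 0.977 to 0.985 across probe sets. Of 18 genes known from the dermal papilla, 17 were called higher in R3 than in R1 and 11 were called higher in R2 than in R1. Over all genes 7.9% and 6.89% were called higher in these comparisons. All 15 keratinocyte genes were called lower in R3 and in R2 than in R1, against 10.8% and 6.16% of all genes. Krt5, a basal keratin, averaged 9.72 in R3, 9.36 in R2 and 12.73 in R1. The summed unlogged level of the 15 keratinocyte genes was 3487 to 6468 in R3, 4329 to 5227 in R2 and 29779 to 42562 in R1. The 3' minus 5' difference of the beta-actin control, a sign of RNA quality, was 0.12 to 0.20 in R3, 0.11 to 0.22 in R2 and 0.04 to 0.07 in R1 (log2). That of the Gapdh control was larger, at 2.68 to 3.02 in R3, 2.57 to 2.85 in R2 and 2.63 to 2.97 in R1, and overlapped between the gates. The keratinocyte level and the beta-actin difference move with the R1 gate, the Gapdh difference does not. The part of these measures in the results below was not tested.

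The means of the main probe sets over the 9 arrays ran from 3.30 (Myf6) to 6.67 (Chrna1) on the log2 scale. In 6 of the 10 the highest gate mean passed the upper end of the background guide. These were Pax3, Myod1, Myog, Chrna1, Actc1 and Myh3. Every array of Myf5, Myf6 and Mymk lay under the guide, and Pax7 passed it on 1 array. Where a gate lies in or under the guide, its level is not separated from background, and the size of a fold against it is not well determined.

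**Figure D1:**
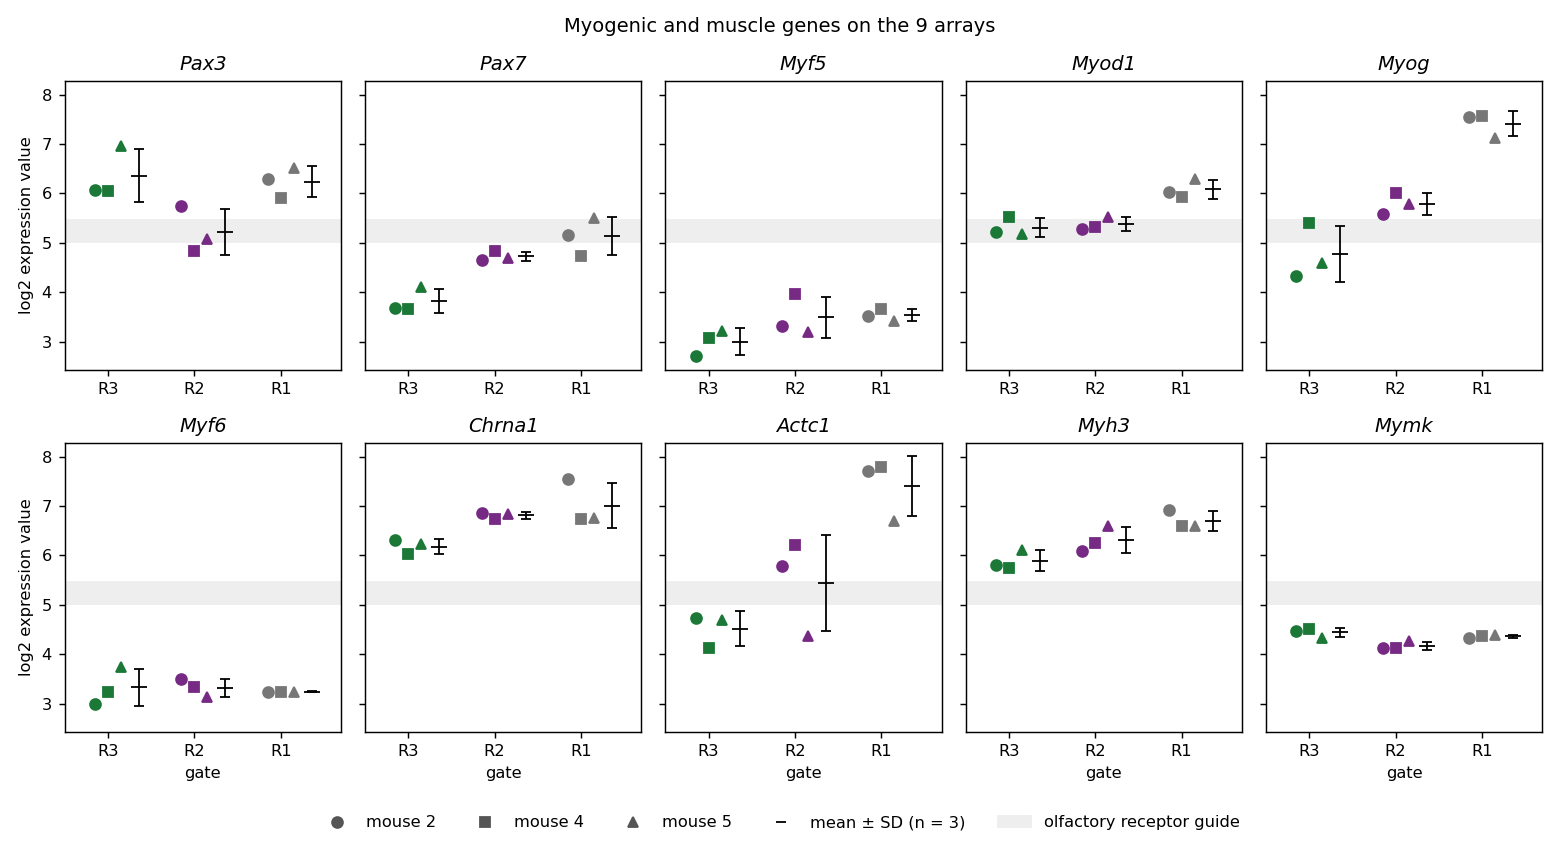
The log2 expression value (y axis) of each gene's main probe set is plotted for the gates R3, R2 and R1 (x axis), with a point per mouse, the mean ± SD of 3 arrays, and a grey band for the background guide from 5.02 to 5.47. Myog and Actc1 stand highest in R1 and lowest in R3, Pax3 is low in R2, and Myf5, Myf6 and Mymk stay under the band.

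The comparison of R3 with R1 asks how the GFP+ papilla gate differs from the dermal cells without CD133. Of the 10 genes, 6 were called lower in R3 and 0 higher by limma, a linear model with shared variance estimates, and 4 were not called. Across all genes 10.8% were called lower and 7.9% higher, at a Benjamini-Hochberg adjusted p under 0.05. At an unadjusted p under 0.05, 7 of the 10 were lower, against 17.9% of all genes. The median log2 change was -0.80 over the 10 genes and -0.01 over all genes. In 7 genes each R3 array lay under each R1 array, as in 18.9% of all genes. In bulk RNA, fewer cells of a type and less RNA per cell cannot be told apart.

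Actc1 encodes cardiac alpha-actin, which young skeletal muscle also makes. It stood at 4.74, 4.12 and 4.70 in R3 (mice 2, 4 and 5), against 7.70, 7.79 and 6.70 in R1 (log2 values). The gates did not overlap, and the R3 arrays all lay under the background guide. The measured values differed 7.36-fold, lower in R3 (log2 change -2.88, standard error 0.46, n = 3 per gate, limma adjusted p = 0.00215), a size that rests on an R3 level not separated from background.

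Myog, or myogenin, is the factor that myoblasts need to differentiate. Its values were 4.32, 5.41 and 4.59 in R3, against 7.54, 7.57 and 7.13 in R1. All R1 arrays passed the upper end of the guide and no R3 array did. Myog was 6.23-fold lower in R3 (log2 change -2.64, standard error 0.27, limma adjusted p = 0.000155), and it was called under all 16 alternatives, with adjusted p from 8.08e-05 to 0.00124. The size of that fold also rests on an R3 level in or under the guide.

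The other 4 called genes moved less. Pax7, the factor of muscle precursors and satellite cells, stood at 3.68, 3.67 and 4.11 in R3, against 5.16, 4.74 and 5.51 in R1. It was 2.48-fold lower in R3 (limma adjusted p = 0.00178), within dim values. Its second probe set, 1452510_at, lay lower still, at 3.17 ± 0.32 in R3 and 3.51 ± 0.11 in R1 (SD, n = 3), and was not called (limma adjusted p = 0.235 over all probe sets).

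Myod1, which commits cells to the muscle lineage, stood at 5.22, 5.53 and 5.17 in R3, against 6.02, 5.93 and 6.30 in R1. It was 1.71-fold lower in R3 (limma adjusted p = 0.00655). Its other probe set, 1447675_x_at, held 2.02 to 2.32 on all 9 arrays and gave no difference that limma called (adjusted p = 0.878). That range is far under the guide.

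Chrna1, the alpha subunit of the muscle acetylcholine receptor, stood at 6.31, 6.02 and 6.23 in R3, against 7.54, 6.74 and 6.76 in R1. The R1 array of mouse 2 stood apart from the other R1 arrays. Chrna1 was 1.77-fold lower in R3 (limma adjusted p = 0.0217). Without R3 replicate 4 its adjusted p was 0.078, and with only the 6 arrays of these gates it was 0.054. The alternatives spanned 0.0157 to 0.078.

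Myh3, the embryonic myosin heavy chain, stood at 5.80, 5.74 and 6.12 in R3, against 6.93, 6.59 and 6.59 in R1. All 9 arrays passed the guide and the gates did not overlap. It was 1.76-fold lower in R3 (limma adjusted p = 0.0106). Values set against another gene's are not comparable on these arrays, so the order of the 10 genes by level carries no meaning beyond the guide.

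The remaining 4 genes did not pass. Myf5, an early commitment factor, averaged 3.00 ± 0.27 in R3 and 3.53 ± 0.12 in R1 (limma adjusted p = 0.128), and each R3 array lay under each R1 array. Myf6, its neighbour in the genome and a factor of later fibres, averaged 3.33 ± 0.38 in R3 and 3.24 ± 0.01 in R1 (adjusted p = 0.799). Mymk averaged 4.44 ± 0.10 in R3 and 4.36 ± 0.03 in R1 (adjusted p = 0.688). Pax3 averaged 6.36 ± 0.53 in R3 and 6.24 ± 0.31 in R1 (adjusted p = 0.842), and its arrays overlapped.

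The sequences before the start of 3 of the genes called lower in R3 against R1 are shown. Of these, Chrna1 was not called in R2 against R1. Their promoters are known places of action for myogenic factors, and a part of such factors in these changes was not tested. RefSeq (GRCm38.p6) gave a promoter window for 6 of the 10 genes, and in the 3 shown the start site lies at the outer edge of the gene. Each line gives the 250 bases before the start, read 5' to 3' along the gene. Capitals mark every match, on either strand, to the E-box CANNTG, to the MEF3 site TCAGGTT, to the MEF2-type site and to the CArG box.
Myog chr1:134289754-134290003, plus strand: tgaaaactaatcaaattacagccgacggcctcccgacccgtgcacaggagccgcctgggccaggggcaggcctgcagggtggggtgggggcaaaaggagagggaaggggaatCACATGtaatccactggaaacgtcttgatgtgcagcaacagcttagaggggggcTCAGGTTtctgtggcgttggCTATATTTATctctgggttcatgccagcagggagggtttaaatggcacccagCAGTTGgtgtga
Chrna1 chr2:73580339-73580588, minus strand: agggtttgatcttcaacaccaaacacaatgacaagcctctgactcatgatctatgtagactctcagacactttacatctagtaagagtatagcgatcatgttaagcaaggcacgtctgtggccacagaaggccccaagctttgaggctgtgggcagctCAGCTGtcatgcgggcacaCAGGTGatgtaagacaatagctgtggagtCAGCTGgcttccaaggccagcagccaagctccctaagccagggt
Actc1 chr2:114052876-114053125, minus strand: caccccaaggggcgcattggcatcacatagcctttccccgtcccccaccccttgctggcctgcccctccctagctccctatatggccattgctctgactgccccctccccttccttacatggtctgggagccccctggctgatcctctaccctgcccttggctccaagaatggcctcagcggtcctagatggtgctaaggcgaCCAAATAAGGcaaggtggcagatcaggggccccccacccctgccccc

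Myogenic factors bind E-boxes, MEF2 factors bind the MEF2 site, and serum response factor binds the CArG box. Counted from -1, the base before the start, Myog held E-boxes from -138 to -133 and from -12 to -7. A MEF3 match ran from -84 to -78 and a MEF2-type match from -64 to -55. Chrna1 held 3 E-boxes, of which 2 read CAGCTG, from -92 to -87 and from -44 to -39. Actc1 held no E-box and 1 CArG box, from -47 to -38. Among 32851 RefSeq windows of the same length, 66.2% held an E-box and 13% the form CAGCTG, which is also counted as an E-box. A MEF2-type match was in 7.03%, a MEF3 match in 3.49% and a CArG box in 1.47%. In the MEF2-type pattern the last letter was left free, after the full consensus had no match in the Myog window. A match is a stretch of letters and not a measured site.

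The comparison of R2 with R1 puts that question to the GFP- papilla gate. It shares the R1 arrays with the comparison above. Of the 10 genes, 3 were called lower in R2 than in R1 and 0 higher, against 6.16% lower and 6.89% higher over all genes. At an unadjusted p under 0.05, 4 were lower, against 13.1% of all genes. The median log2 change was -0.40 over the 10 genes and -0.02 over all genes, and the R2 arrays lay under all R1 arrays in 5 genes, as for 15.4% of all genes.

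The 3 called genes were Actc1, Myog and Myod1. Myog stood at 5.58, 6.01 and 5.79 in R2, against 7.54, 7.57 and 7.13 in R1. All R2 arrays passed the guide by a little and none reached R1. R2 held 3.08-fold less, a log2 change of -1.62 with a standard error of 0.27 (n = 3 per gate, limma adjusted p = 0.00357).

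Actc1 stood at 5.79, 6.21 and 4.36 in R2, against 7.70, 7.79 and 6.70 in R1. The R2 arrays were spread widely, with mouse 5 under the guide, yet all 3 mice had less in R2 than in R1. R2 held 3.86-fold less, a log2 change of -1.95 with a standard error of 0.46 (limma adjusted p = 0.0218). The adjusted p was 0.074 without R1 replicate 2 and 0.0756 without R1 replicate 4, within a range of 0.0159 to 0.0756.

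Myod1 stood at 5.27, 5.32 and 5.53 in R2, against 6.02, 5.93 and 6.30 in R1, with no overlap. It was 1.63-fold lower in R2 (limma adjusted p = 0.0145). Leaving out R2 replicate 2 gave an adjusted p of 0.0542 and leaving out R2 replicate 4 gave 0.0547. The mean of both probe sets gave 0.0616, the highest value over the alternatives (lowest 0.0153).

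For Pax3 each R2 array lay under each R1 array on the main probe set. The values were 5.74, 4.84 and 5.08 in R2, against 6.29, 5.91 and 6.52 in R1. The fit missed the threshold (log2 change -1.02, standard error 0.31, limma adjusted p = 0.0586). It passed with the mouse as a block (adjusted p = 0.0434), without R2 replicate 2 (0.034), without R3 replicate 5 (0.029) and with the mean of the 3 probe sets (0.002), and the highest value over the alternatives was 0.183.

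The other 6 genes were not called in R2 against R1. Chrna1 averaged 6.81 ± 0.07 in R2 and 7.01 ± 0.46 in R1 (limma adjusted p = 0.607). Pax7 averaged 4.73 ± 0.09 in R2 and 5.14 ± 0.39 in R1 (adjusted p = 0.237). Myh3 averaged 6.31 ± 0.26 in R2 and 6.70 ± 0.20 in R1 (adjusted p = 0.191). Myf5, Myf6 and Mymk differed by -0.03, 0.08 and -0.19 on the log2 scale, within values under the guide. In Mymk each R2 array nevertheless lay under each R1 array.

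**Figure D2:**
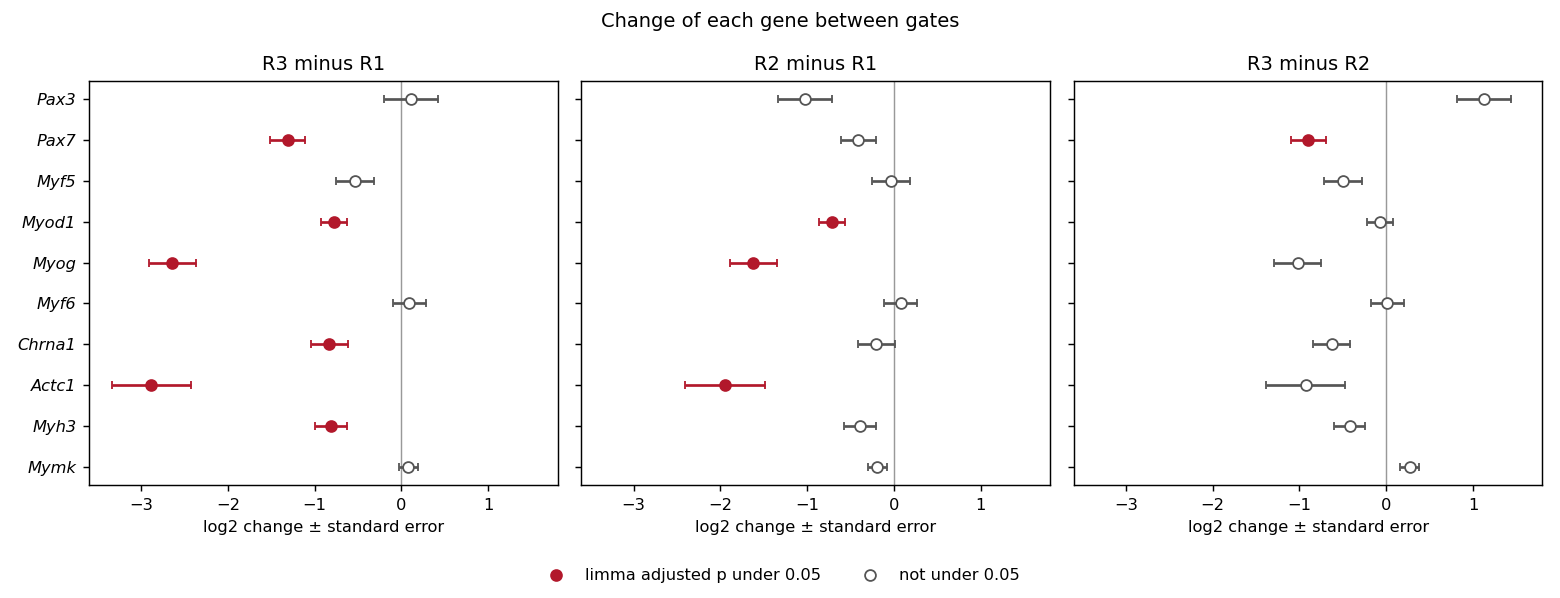
The log2 change of each gene (x axis) with its moderated standard error is plotted for R3 minus R1, R2 minus R1 and R3 minus R2, with the 10 genes down the y axis. Filled red points passed an adjusted p of 0.05: 6 genes in R3 minus R1, 3 in R2 minus R1 and Pax7 in R3 minus R2, all to the left of 0.

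The comparison of R3 with R2 asks where the GFP+ and GFP- papilla gates differ. It is also the test of whether a gene's change against R1 differs between them. Of the 10 genes, 1 was called lower in R3 than in R2 and 0 higher, against 3.06% lower and 1.97% higher over all genes. At an unadjusted p under 0.05, 5 were lower and 2, Pax3 and Mymk, were higher, against 11% lower and 7.1% higher over all genes. The median log2 change was -0.46, against -0.01 over all genes, and 3 genes had every R3 array under every R2 array, as had 12.8% of all genes. In the same 2 genes every R3 array lay over every R2 array, as in 9.98% of all genes. The lower genes numbered 2 with the mouse as a block, which added Myog, and 0 without R2 replicate 2, R3 replicate 2, R2 replicate 4 or R2 replicate 5.

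The called gene was Pax7. It stood at 3.68, 3.67 and 4.11 in R3, against 4.66, 4.83 and 4.69 in R2, without overlap. All of these values lay under the guide. R3 held 1.87-fold less (log2 change -0.90, standard error 0.20, n = 3 per gate, limma adjusted p = 0.0344). The call was lost without R1 replicate 2 (adjusted p = 0.0527), R2 replicate 2 (0.0864), R3 replicate 2 (0.112), R2 replicate 4 (0.118), R3 replicate 4 (0.119) or R2 replicate 5 (0.0796). It was also lost with the mean of both probe sets (0.0661). The second probe set averaged 3.17 in R3 and 3.25 in R2.

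Myog stood at 4.32, 5.41 and 4.59 in R3, against 5.58, 6.01 and 5.79 in R2. The gates did not overlap, and the log2 change of -1.02 (standard error 0.27) missed the threshold (limma adjusted p = 0.0636). It passed with the mouse as a block (adjusted p = 0.038), without R3 replicate 4 (0.00925) and after quantile normalization again (0.0492), within a range of 0.00925 to 0.198. Chrna1 was likewise apart, at 6.31, 6.02 and 6.23 in R3, against 6.86, 6.74 and 6.84 in R2. Its adjusted p was 0.137, and it was 0.0256 without R1 replicate 2 and 0.0435 with only the 6 arrays of these gates (highest 0.335).

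Actc1 averaged 4.52 ± 0.35 in R3 and 5.45 ± 0.97 in R2 (log2 change -0.93, limma adjusted p = 0.327), with mouse 5 higher in R3 and the other mice lower. Myod1 averaged 5.31 ± 0.19 in R3 and 5.38 ± 0.14 in R2 (adjusted p = 0.868), a log2 change of -0.07 with a standard error of 0.15. Myh3 averaged 5.89 ± 0.21 in R3 and 6.31 ± 0.26 in R2 (adjusted p = 0.244). For Chrna1 and Myh3, called against R1 in R3 and not in R2, the difference between R3 and R2 itself was therefore not called. Mymk averaged 4.44 ± 0.10 in R3 and 4.17 ± 0.08 in R2 (adjusted p = 0.234), under the guide. Myf5 averaged 3.00 ± 0.27 in R3 and 3.49 ± 0.42 in R2 (adjusted p = 0.265). The Myf6 means were 3.33 in R3 and 3.32 in R2.

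Pax3 had a higher estimate in R3 than in R2, as did Mymk. The main probe set, 1441743_at, stood at 6.06, 6.04 and 6.97 in R3, against 5.74, 4.84 and 5.08 in R2, and at 6.29, 5.91 and 6.52 in R1. R3 and R1 overlapped, and both lay over R2. The change of R3 against R2 was 1.13 on the log2 scale (standard error 0.31, limma adjusted p = 0.0704). It passed without R2 replicate 2 (adjusted p = 0.0476) and with the mean of the 3 probe sets (0.00298), within a range of 0.00298 to 0.224.

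A second Pax3 probe set, 1420389_at, showed the same order more sharply. It stood at 6.31, 5.62 and 5.62 in R3, against 4.73, 3.60 and 4.37 in R2, and at 5.91, 6.21 and 5.62 in R1. All R2 arrays lay under the guide and all others above it. Tested among all single probe sets, it passed for R3 against R2, with a log2 change of 1.62 (limma adjusted p = 0.0175), and for R2 against R1, with a log2 change of -1.68 (adjusted p = 0.00749). The third, 1430335_a_at, averaged 5.13 ± 0.16 in R3, 4.70 ± 0.36 in R2 and 5.06 ± 0.11 in R1, and was not called in any comparison.

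**Figure D3:**
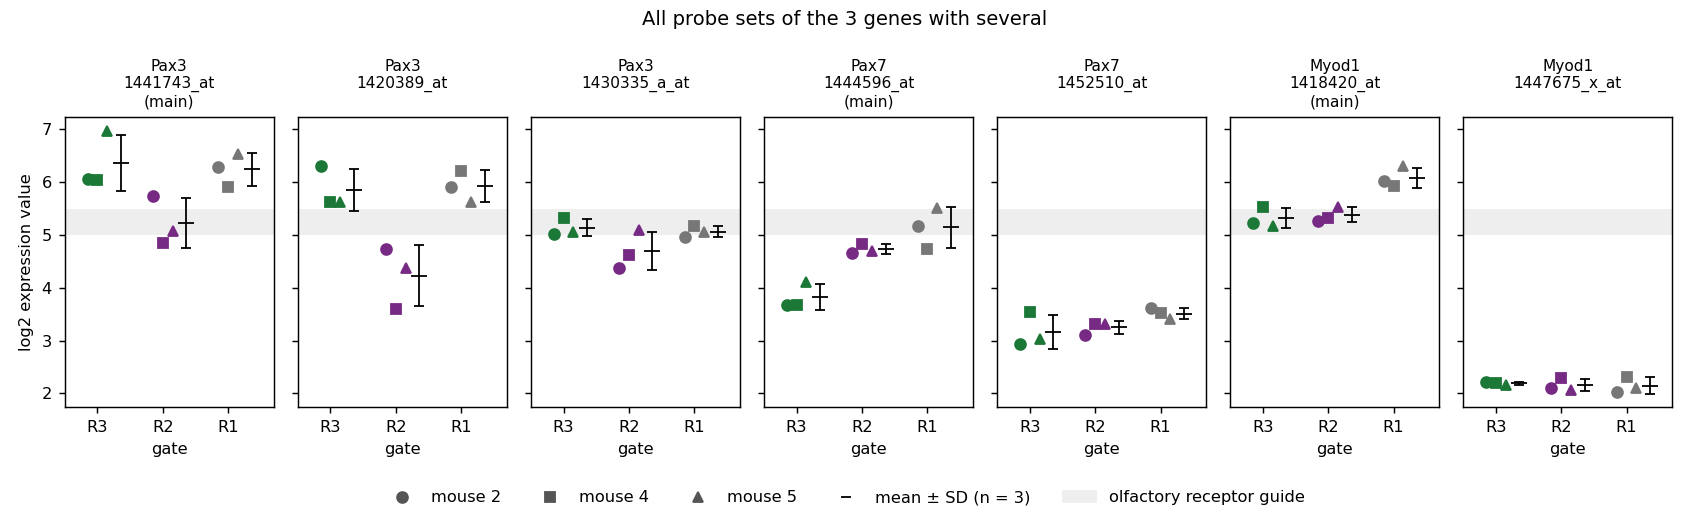
All 7 probe sets of Pax3, Pax7 and Myod1 are plotted as log2 expression values (y axis) by gate (x axis), with a point per mouse, the mean ± SD of 3 arrays and the background guide in grey. The R2 arrays are lowest on average in each of the 3 Pax3 probe sets, while 1452510_at of Pax7 and 1447675_x_at of Myod1 lie far under the guide in all gates.

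Genes of Schwann cells and glia moved in the same direction as Pax3 between R3 and R2. Of 9 measured, 7 were called higher in R3 than in R2, against 1.97% of all genes. Against R1, 6 were called higher in R3 (7.9% of all genes) and 4 were called lower in R2 (6.16%). Their summed unlogged level was 6530 to 7490 in R3, 537 to 671 in R2 and 1327 to 1915 in R1. Mbp, a myelin protein, averaged 11.95 in R3, 5.92 in R2 and 7.80 in R1. Erbb3, the neuregulin receptor of the Schwann lineage, averaged 10.08 in R3, 7.08 in R2 and 9.55 in R1. Sox10, a factor of both neural crest lineages, averaged 7.26 in R3, 6.34 in R2 and 6.79 in R1 and was called between R3 and R2 (limma adjusted p = 0.00562).

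Melanocyte genes followed another order. Of 12, 7 were called lower and 1 higher in R3 than in R1, against 10.8% and 7.9% of all genes. In R2 against R1, 6 were called lower and 1 higher, against 6.16% and 6.89% of all genes. Between R3 and R2 limma called only Sox10, against 5.03% of all genes. The summed unlogged level was 3269 to 3892 in R3, 3060 to 3729 in R2 and 3161 to 4028 in R1, and Ednrb, the gene of the list with the highest mean, was the one called higher in both. Mitf, the main factor of the lineage, averaged 8.28 in R3, 8.25 in R2 and 9.13 in R1. Dct, an enzyme of melanin synthesis, averaged 6.91 in R3, 7.26 in R2 and 9.67 in R1. Sox10 and Dct are named after their values were seen. The part of either lineage in the Pax3 values was not tested.

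**Figure D4:**
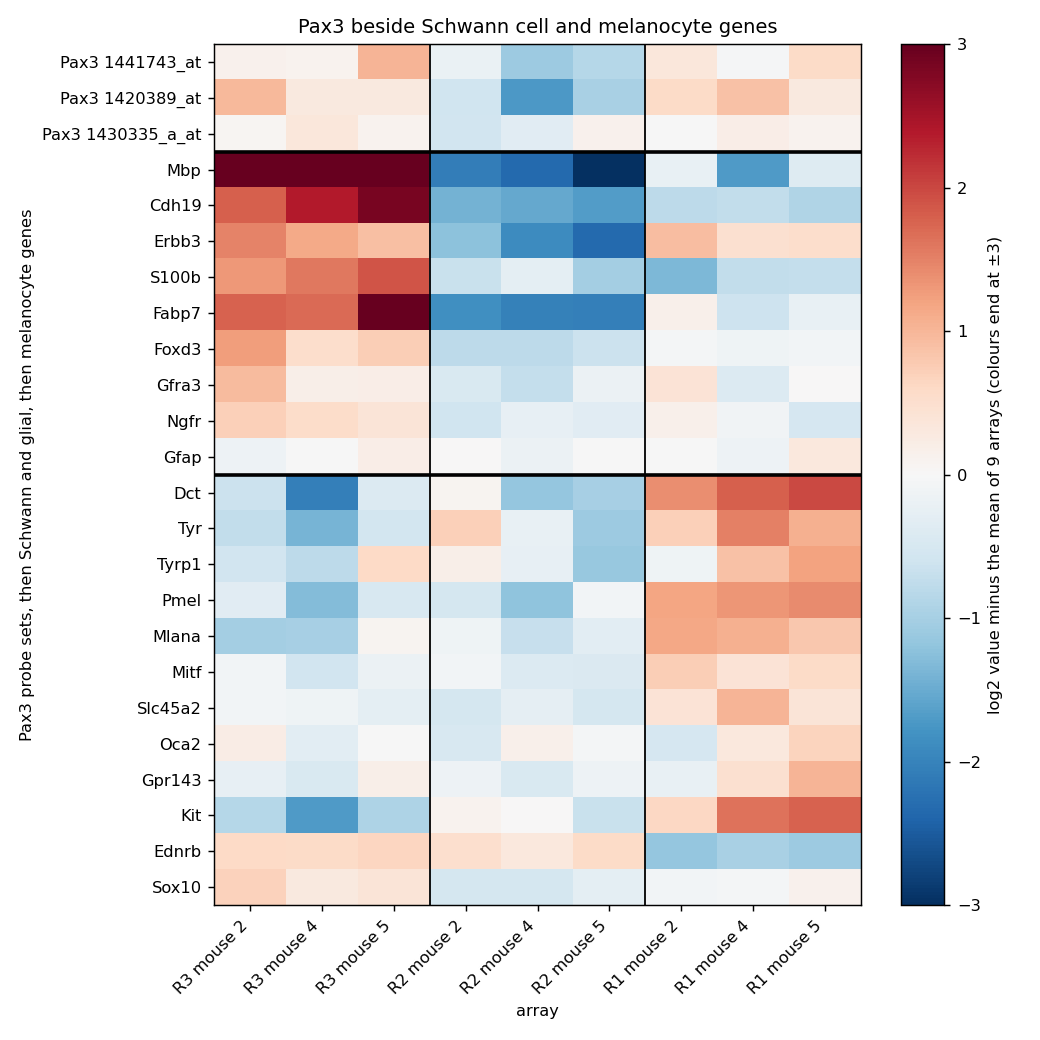
Rows are the 3 Pax3 probe sets, 9 Schwann and glial genes and 12 melanocyte genes, columns are the 9 arrays by gate, and colour is the log2 value minus the row's mean, with the scale ending at ±3. The Pax3 rows are negative on average in R2, most Schwann rows are red in R3 and blue in R2, and most melanocyte rows are red in R1.

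Wider lists place the 10 genes among other genes of muscle. The sarcomere and contractile list, with 50 genes measured, showed no common shift. In R3 against R1, 4 rose, 3 fell and 43 were not called, with a median log2 change of 0.01. In R2 against R1, 3 rose, 2 fell and 45 were not called (median -0.02), and in R3 against R2 limma called 0 of 50 (median 0.04), with 5 at an unadjusted p under 0.05. The background shares of calls in either direction were 18.7%, 13.1% and 5.03% of all genes in the same order. In 25 of the 50 no gate mean passed the guide. The 2 lowest p in R3 against R2 belonged to Actn3, with means of 5.74 in R3 and 5.21 in R2 (limma adjusted p = 0.0879), and Lmod2, with 5.50 in R3 and 4.42 in R2 (adjusted p = 0.108). The 7 calls of R3 against R1 numbered 3 without R1 replicate 2, R3 replicate 4 or R3 replicate 5 and 4 without R3 replicate 2. The 5 calls of R2 against R1 numbered 3 without R1 replicate 4 or R2 replicate 4. The 0 calls of R3 against R2 became 1 without R2 replicate 5.

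The 2 strongest calls of the list ran opposite to Myog and Actc1. Tnnt1, the slow skeletal troponin T, stood at 10.15, 10.57 and 9.98 in R3, 10.06, 9.30 and 9.49 in R2 and 7.38, 7.11 and 6.44 in R1. Every array of R3 and R2 lay over every R1 array. The rise was 3.26 on the log2 scale in R3 (limma adjusted p = 6.16e-05) and 2.64 in R2 (adjusted p = 0.000292).

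Casq2, a calcium store protein of heart and slow muscle, averaged 10.49 in R3, 11.10 in R2 and 8.22 in R1. It rose by 2.28 in R3 (limma adjusted p = 0.00107) and by 2.88 in R2 (adjusted p = 0.000389). Tnnt2, the cardiac troponin T that embryonic skeletal muscle also makes, averaged 8.07 in R2 and 6.62 in R1 and rose in R2 (adjusted p = 0.0279). Klhl41, a sarcomere assembly factor, averaged 3.66 in R3 and 4.88 in R1, both under the guide, and was called lower (adjusted p = 0.0149). Smpx, a small striated muscle protein, averaged 2.54 in R3 and 3.32 in R1 (adjusted p = 0.0275), both under the guide. The other gene that fell in R3 against R1 was Myom1, named after its values were seen. It averaged 5.88 in R3 and 6.80 in R1, both over the guide (limma adjusted p = 0.0444). The Tnnt2 call was lost without R2 replicate 2, R1 replicate 4, R2 replicate 4 or R1 replicate 5 (limma adjusted p = 0.0623 to 0.0932). It was also lost with only the 6 arrays of the gates (0.0545). With the mean of its probe sets the log2 change was 0.73 and not called (0.0675). The Klhl41 call was lost without R1 replicate 2, R1 replicate 4 or R3 replicate 5 (0.0501 to 0.0572). That of Smpx was lost without R3 replicate 2 (0.0896) or R3 replicate 4 (0.0702), or with only the 6 arrays of the gates (0.0636).

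**Figure D5:**
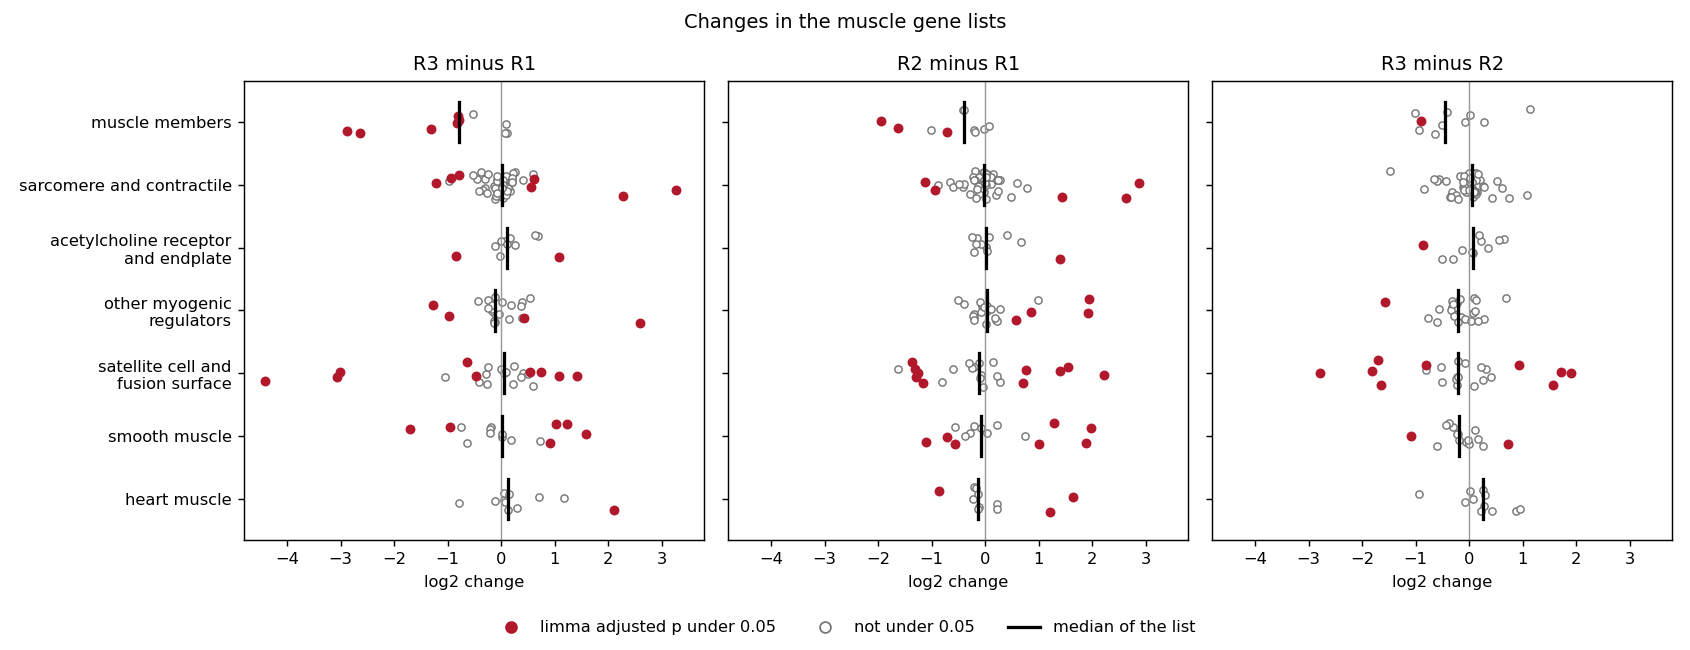
Each point is the log2 change (x axis) of a gene of the list named on the y axis, for R3 minus R1, R2 minus R1 and R3 minus R2, red where the limma adjusted p was under 0.05, with a bar at the list's median. The medians of the 10 genes are -0.80, -0.40 and -0.46, while those of the sarcomere list are 0.01, -0.02 and 0.04.

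Among 11 other genes of the acetylcholine receptor and the endplate, 1 rose and 1 fell in R3 against R1, 1 rose in R2 against R1 and 1 fell in R3 against R2. Over all genes, 18.7%, 13.1% and 5.03% were called in the same order, and nothing particular to the list is read from its counts. Agrn, the agrin that clusters receptors at the synapse, averaged 10.70 in R3 and 9.60 in R1. It rose by 1.09 on the log2 scale in R3 (limma adjusted p = 0.000318) and by 1.40 in R2 (adjusted p = 0.000114). Chrnb1, the beta subunit that assembles with the product of Chrna1, averaged 3.76 in R3, 4.63 in R2 and 4.62 in R1. It was called lower in R3 against R2 (adjusted p = 0.0295) and against R1 (adjusted p = 0.0117), under the guide throughout. The call against R2 was lost with the mouse as a block (0.0555) and without any single array of R3 or R2 (0.0513 to 0.0848). The 1 call of the list in R2 against R1 became 2 with the mouse as a block and without R2 replicate 2.

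Among 23 other transcription regulators of myogenesis, 2 rose and 2 fell in R3 against R1, 4 rose in R2 against R1 and 1 fell in R3 against R2. These counts are likewise near the shares of all genes, 18.7%, 13.1% and 5.03%. Eya2, a transcriptional co-activator, averaged 7.08 in R3, 6.40 in R2 and 4.48 in R1. It rose in R3 (limma adjusted p = 5.79e-05) and in R2 (adjusted p = 0.000477). Hdac9, a deacetylase that restrains MEF2 factors, averaged 5.61 in R3, 7.19 in R2 and 5.24 in R1. It rose in R2 against R1 (adjusted p = 1.79e-05) and fell in R3 against R2 (adjusted p = 8.96e-05). Tbx1, a factor of head muscle, averaged 6.95 in R3 and 8.21 in R1 and fell (adjusted p = 0.00406). Msc, or musculin, averaged 6.01 in R3 and 6.98 in R1 and fell (adjusted p = 0.0257). Mef2a and Id1 rose in R2 against R1 (adjusted p = 0.0147 and 0.0387), and Mef2a rose in R3 as well (adjusted p = 0.0431). The 4 calls in R3 against R1 numbered 2 without R1 replicate 2, R3 replicate 2 or R1 replicate 5, and the 4 in R2 against R1 numbered 2 without R2 replicate 2. With the mouse as a block the 1 call in R3 against R2 became 2, with Tbx1 added (adjusted p = 0.0398). The Mef2a call in R3 was lost with the block (0.0682) and without any single array other than R2 replicate 2 (up to 0.137). That call was also lost with the 6 arrays alone, centring, the mean of its probe sets or all probe sets tested singly (0.0559 to 0.0753). The Mef2a call in R2 was lost without R1 replicate 2 (0.0518) or R2 replicate 2 (0.0562). Msc lost its call without R1 replicate 2, R3 replicate 2 or R1 replicate 5 (0.0629 to 0.0804), or with only the 6 arrays of its gates (0.0505). Id1 lost its call without R2 replicate 2, R3 replicate 2, R1 replicate 4, R2 replicate 4 or R1 replicate 5 (0.0555 to 0.126). It also did so with only the 6 arrays of its gates (0.0663).

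Genes of satellite cells and of fusion, many of them for surface proteins, gave calls in both directions. Of 23 measured, 4 rose and 5 fell in R3 against R1, 5 rose and 5 fell in R2 against R1, and 4 rose and 5 fell in R3 against R2. The shares called over all genes were 18.7%, 13.1% and 5.03%. Many of them have wide roles outside muscle. Fgfr4, a fibroblast growth factor receptor of myoblasts, averaged 4.61 ± 1.10 in R3, 7.41 ± 0.58 in R2 and 9.02 ± 0.14 in R1 (SD, n = 3). Its gates did not overlap, in the same order as Myog, and its R3 arrays lay in or under the guide, so the sizes against R3 rest on a level not separated from background. It fell in R3 against R1 by 4.41 on the log2 scale (limma adjusted p = 0.000243) and in R3 against R2 by 2.79 (adjusted p = 0.0091), and R2 against R1 was not called (adjusted p = 0.0558), though it passed without R3 replicate 4 (0.00543) or R3 replicate 5 (0.0496).

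Cdon, a receptor that promotes myogenic differentiation and binds hedgehog ligands, showed that order too. It averaged 7.67 in R3, 9.49 in R2 and 10.74 in R1, and it fell in all 3 comparisons (limma adjusted p = 5.39e-06 for R3 against R1, 0.0012 for R2 against R1 and 0.000266 for R3 against R2). Cd34, a surface protein of satellite cells and of endothelium, averaged 7.49 in R3, 9.20 in R2 and 10.50 in R1. Of 16 endothelial genes all fell in R3 against R2 and 15 rose in R2 against R1, where 3.06% and 6.89% of all genes did. In R3 against R1, 2 of the 16 rose and 8 fell, against 7.9% and 10.8% of all genes. Their summed unlogged level was 1993 to 2249 in R3, 8305 to 10022 in R2 and 2572 to 2972 in R1, and their part in the Cd34 values was not tested. Chodl, or chondrolectin, averaged 10.31 in R3, 8.41 in R2 and 9.73 in R1, lowest in R2 like Pax3 (adjusted p = 0.00128 for R3 against R2). Cxcr4, a chemokine receptor, averaged 11.81 in R3, 12.61 in R2 and 11.07 in R1, and Jam2, an adhesion molecule, 6.90 in R3, 7.70 in R2 and 5.48 in R1. Sdc4, a syndecan, averaged 9.41 in R2 and 10.77 in R1 and fell (adjusted p = 0.00101). Heyl, a Notch effector, averaged 8.85 in R3 and 10.49 in R2 and fell (adjusted p = 0.0029).

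Other kinds of muscle were represented by smooth and heart muscle lists. All 15 smooth muscle genes had a gate mean over the guide. Of them, 4 rose and 2 fell in R3 against R1, 4 rose and 3 fell in R2 against R1, and 1 rose and 1 fell in R3 against R2. Over all genes, 18.7%, 13.1% and 5.03% were called in the same order. Acta2, smooth muscle alpha-actin, averaged 11.98 in R3, 12.03 in R2 and 10.75 in R1, a direction opposite to that of Actc1. Des and Myh11, the 2 that fell in R3 against R1, ran in the direction of Actc1 and fell in R2 against R1 too. Des averaged 6.26 in R3, 6.64 in R2 and 7.21 in R1, and Myh11 7.05 in R3, 7.65 in R2 and 8.76 in R1. Both are named after their values were seen. Mylk, the myosin light chain kinase, averaged 11.48 in R3, 11.22 in R2 and 11.29 in R1. Of 11 heart muscle genes 1 rose in R3 against R1, and 2 rose and 1 fell in R2 against R1. Limma called 0 of them in R3 against R2, with 2 at an unadjusted p under 0.05. The shares of all genes are again 18.7%, 13.1% and 5.03%, and nothing particular to the heart list is read from its counts. Tnni3, the cardiac troponin I, averaged 7.39 in R3, 6.51 in R2 and 5.29 in R1, and Hand2 6.53 in R3, 6.61 in R2 and 6.39 in R1.

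Likeness to the 6 genes that passed the guide was measured over the 9 arrays as the root mean square difference between log2 values, after each gene was centred on its own mean. Genes with clone, predicted-gene or accession-type symbols, such as those ending in Rik, were passed over. Of the others, the 3 nearest genes to Myog were Kcnk2 (0.27), Il1r2 (0.28) and Vwa2 (0.28). Kcnk2 averaged 4.73 in R3, 6.02 in R2 and 7.42 in R1. The nearest to Actc1 were Spint2 (0.35), Car3 (0.39) and Adh1 (0.40), and to Pax3 they were Myo5b (0.22), Cyp2g1 (0.25) and Pde1a (0.25). For Myod1 they were Fgf23 (0.10), Reck (0.11) and Svil (0.14). Chrna1 lay nearest to Sec14l1 (0.12), Hrct1 (0.13) and Fam43a (0.14), and Myh3 to Fen1 (0.10), Elf4 (0.12) and Smarcc1 (0.13). None of these is a gene of the muscle lists used here, which do not hold every gene that muscle makes. Small differences come more easily to genes that vary little.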

How the data were processed

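Total RNA from 3 sorted gates of 3 mice was amplified, labelled with biotin and measured on 9 arrays, per the labels' protocols. The authors deposited 1 log2 expression value for each probe set and array. RMA, which corrects background, quantile-normalizes and summarises probes, is named in the submitters' processing notes, without version or settings. RMA values carry no detection call, and amplification and quantile normalization can compress folds.

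Probe sets with 1 gene symbol in the platform annotation (34945 of 45101, less the control probe sets) were used, and each of 18193 genes took its probe set with the highest mean. Groups and mouse numbers came from the labels. The 3 gates were compared with the linear models of limma (version 3.58.1, run under R 4.3.3) and empirical Bayes variances (9.49 total degrees of freedom), 1 coefficient per gate, no block and Benjamini-Hochberg adjustment over all genes of a comparison. The same mouse gave each gate, so gates are paired by the labels; deviations from gate means correlated at 0.007 to 0.177 within mice and -0.157 to 0.041 between mice. The alternatives were the mouse as a block, each array left out, the 6 arrays of a comparison alone, centring, quantile normalization again, other choices of probe set, brighter genes alone and a trend and robust variance. The test was checked on simulated data.

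The genes and lists were chosen with earlier results of these data known. The text names all 10 genes. From each wider muscle list it names up to 4 called genes per comparison with the lowest p, or the 2 of lowest p where none is called. From each other list described it names up to 2 genes with the highest mean, and the 3 genes of nearest pattern. Genes with clone, predicted-gene or accession-type symbols were passed over in the search for nearest patterns. Sox10, Dct, Des, Myh11 and Myom1 were named outside these rules, after their values were seen. Some listed genes are not reported here. Plots were drawn with matplotlib 3.10.9 and tables made with pandas 2.3.3, under Python 3.11.15.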

Additional observations from a re-analysis of the deposited data

How the results depend on the processing

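The 6 genes called lower in R3 against R1 numbered 5 to 6 with an array left out, 5 with only the 6 arrays of the gates and 6 under each other alternative that could be run, the mouse as a replicate block included. In R2 against R1 the 3 genes called lower became 2 to 4 with an array left out and 4 with the replicate block. Beside Myog in R3 against R2 and Pax3 in R2 against R1, the block changed no call of the 10 genes. In R3 against R2 the 1 lower gene became 0 to 1 with an array left out, 2 with the mouse as a replicate block, 2 with only the 6 arrays of the gates, 2 after quantile normalization again and 0 with the mean of all probe sets; the 0 higher genes became 0 to 1 with an array left out and 1 with that mean. The sarcomere list had 7 calls in R3 against R1 (3 to 7 with an array left out), 5 in R2 against R1 (3 to 5, and 3 with only the 6 arrays of the gates) and 0 in R3 against R2 (0 to 1). Among genes above the median gene, where 6 of its 50 genes remained, it had 2 and 3 calls against R1. No count of the 10 genes was possible there, since that filter left none of them.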
